A study of Mus musculus with 10 samples.

Results

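The cyclin and cell-cycle kinase genes described here are Ccnd1, Ccnd2, Ccnd3, Ccne1, Ccne2, Ccna2, Ccnb1, Ccnb2, Cdk4 and Cdk6, followed through the N6-methyladenosine (m6A) peaks of cultured mouse hypothalamic neural progenitor cells. A peak is an interval in which RNA fragments pulled down with an m6A antibody (immunoprecipitation, IP) were enriched over input RNA. A peak was assigned to a gene when it overlapped the RefSeq span of that gene on GRCm38.p6 by at least 50% of the shorter of both, on the strand with more IP reads. By this rule 8 of the 21195 deposited peaks belonged to the 10 genes. The cells came from the hypothalamus of Mettl14f/f mouse embryos at stage E14.5, and both groups carried the floxed Mettl14 gene, which encodes a subunit of the m6A writer complex. Both were grown with 20 ng/ml FGF2 and 20 ng/ml EGF. The knockout group received lenti-EGFP-Cre and the control group lenti-EGFP, and EGFP-positive cells were sorted after 72 hours. The labels list 4 IP libraries and 1 input library per genotype and do not say whether these came from separate cultures.

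The peak table held 1 pooled input column and 1 pooled IP column with no genotype, so no value below can be given to the control or the knockout group, and none has a replicate spread. Which libraries went into each column, and whether they were summed or averaged, is not stated, and the intervals below take the columns as summed reads. Over all peaks these columns summed to 26633390 input and 72308582 IP reads, with medians of 466 and 864 reads per peak. Of the progenitor markers, 8 of 11 genes held a peak, among them Nes, Pax6, Hes1, Sox9 and Notch2, and Vim, Hes5 and Fabp7 did not. For the other three, Sox1, Sox2 and Notch1, the strongest peak also overlapped another RefSeq gene, and that of Sox2, on 10 input reads, lay wholly within Sox2ot. The hypothalamic factors Nkx2-1, Six3, Tbx3 and Lhx2 held peaks (the strongest of Lhx2 also overlapped another gene), and Rax, Otp and Sim1 did not. None of 5 microglial and blood markers and 1 of 6 vessel and mesenchyme markers (Kdr) held one. Among neuronal, astrocyte and oligodendrocyte markers, 3 of 6, 2 of 4 and 3 of 5 did. The strongest peak of Aqp4, an astrocyte marker, also lay wholly within another RefSeq gene. By the same rule 44.2% of all protein-coding genes held a peak, so counts near this share do not tell which cells were present. A gene without a peak may still have been transcribed, and in these pooled cells fewer cells of a type cannot be told apart from less RNA per cell.

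Cyclins are regulatory subunits that rise and fall through the cell cycle and switch on cyclin-dependent kinases. D-type cyclins, made in response to mitogens such as FGF2 and EGF, act with Cdk4 and Cdk6 in G1 and begin the phosphorylation of the retinoblastoma protein. E-type cyclins act with Cdk2 at entry into S phase, cyclin A2 acts through S and G2, and B-type cyclins drive mitosis with Cdk1. In the embryonic brain the balance between these genes and their inhibitors sets how often progenitors divide before they leave the cycle.

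Peaks were found in 5 of the 10 genes, Ccnd2, Ccne1, Ccne2, Ccnb2 and Cdk6 (50%, exact Clopper-Pearson 95% interval 18.7% to 81.3%, for counting error only). Of all 21900 RefSeq protein-coding genes, 44.2% held a peak by the same rule. The share for these 10 genes was therefore near the background. Ccnd2, Ccne2 and Cdk6 held 2 peaks each, where 22.4% of protein-coding genes held 2 or more. Ccnd1, Ccnd3, Ccna2, Ccnb1 and Cdk4 held none. Except for the E-type pair, a family or kinase pair thus split between a gene with a peak and a gene without one. Over all protein-coding genes the share with a peak ran from 18.1% of those of up to 5 kb to 70.9% of those over 100 kb. Cdk4 spans 3.75 kb and Cdk6 190.0 kb. Ccnd3 spans 94.6 kb without a peak, and 61.4% of genes of 50 to 100 kb had one. Of the 4 genes between 5 and 10 kb (Ccnd1, Ccne1, Ccna2 and Ccnb1) only Ccne1 had a peak, against 35.9% of protein-coding genes of that length. Both genes between 10 and 20 kb, Ccne2 and Ccnb2, had one, against 45.3%, and so did Ccnd2, between 20 and 50 kb, against 52.6%.

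The log2 fold change of IP over input that the authors deposited for each peak is called its log2 enrichment here. Each of the 8 peaks had an adjusted p below 0.05 in the authors' deposited table, as did 21187 of all 21195 peaks (100%), so this count separates the members from nothing. The strongest was the 3′ peak of Ccne2, with a log2 enrichment of 4.33 by the authors' deposited table, and the weakest the peak of Ccnb2, with 2.16. By the authors' deposited table the median log2 enrichment was 2.62 over the 8 peaks and 3.06 over all peaks, with 2 of the 8 peaks (the Ccne2 3′ peak and the Ccne1 peak) above the latter. Taking the strongest peak of each gene, the authors' deposited table gave medians of 2.73 over the 5 genes and 3.51 over all protein-coding genes with a peak.

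**Figure D1:**
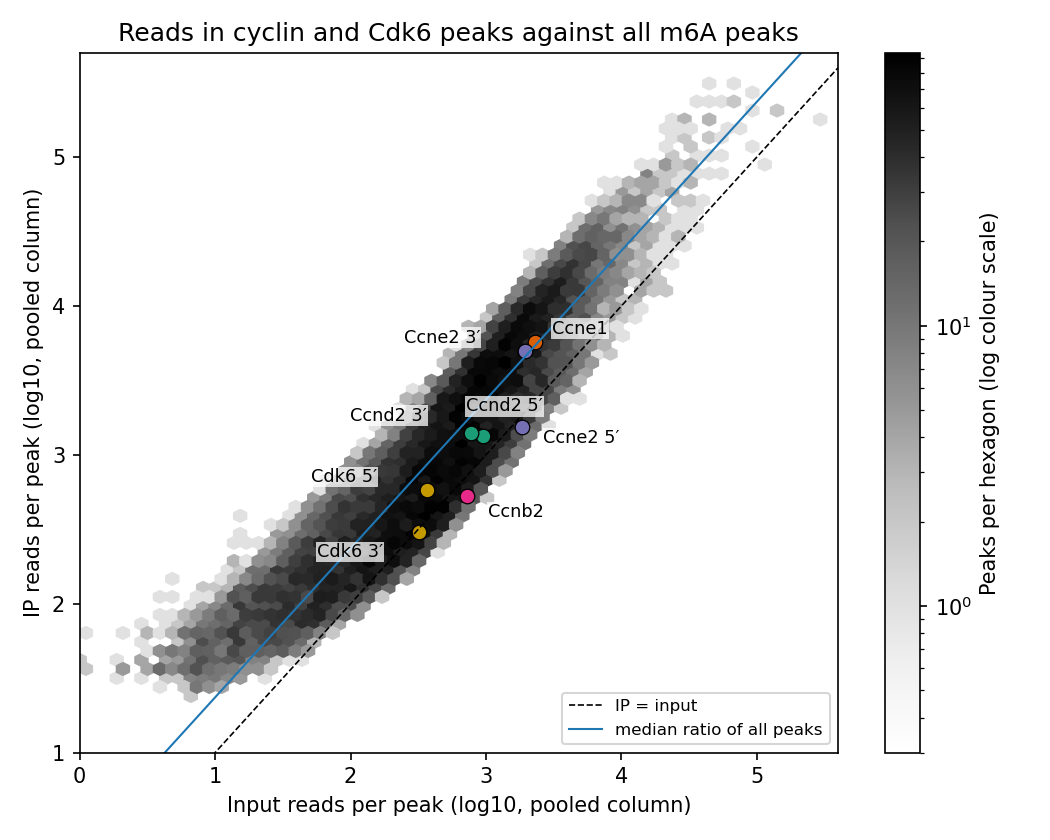
Input reads (x axis) and IP reads (y axis) of each peak, both on log10 scales, for the 8 peaks of the cyclin and cell-cycle kinase genes (coloured points, with 5′ and 3′ naming the peaks of genes with 2) over a density of all deposited peaks except 5 with 0 input reads. The dashed line marks equal reads and the blue line the median ratio of all peaks, 2.35; the Ccne1 and Ccne2 3′ peaks lie just above the blue line, and the Ccne2 5′, Ccnb2 and Cdk6 3′ peaks lie below the dashed line.

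Among the D-type cyclins only Ccnd2, which encodes cyclin D2, held peaks (gene entry ENSMUSG00000000184, chromosome 6, 127125162 to 127152188, peaks on the minus strand). The 5′ peak, at 127148209 to 127148558, drew 1333 IP reads on 947 input reads, a ratio of 1.41 (exact 95% interval 1.29 to 1.53). The 3′ peak, at 127129462 to 127130261, drew 1402 IP reads on 776 input reads, a ratio of 1.81 (1.65 to 1.97). The authors' deposited table gave log2 enrichments of 2.40 and 2.73. Both peaks lay below the median ratio of all peaks, at the 25.4 and 37.0 percentiles. The 3′ peak had 1.28 times the ratio of the 5′ peak (exact conditional 95% interval 1.14 to 1.45). This comparison takes both peaks from the same gene and the same pooled libraries, so that depth cancels, and its interval covers counting error only. The difference came from 0.819 times the input reads and 1.05 times the IP reads in the 3′ peak.

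Neither Ccnd1 nor Ccnd3, which encode cyclins D1 and D3, overlapped any deposited peak by as much as a base. The peak nearest to Ccnd1 (chromosome 7, 144929931 to 144939831) lay 437 bases outside its span and wholly within LTO1, on the plus strand of that gene. It drew 151 IP reads on 32 input reads, and the authors' deposited table gave a log2 enrichment of 3.62. The peak nearest to Ccnd3 (chromosome 17, 47505051 to 47599689) lay 1392 bases away within Bysl. The table lists reads in peaks only, so for these genes a lack of RNA cannot be told apart from a lack of enrichment.

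Both E-type cyclins held peaks, and the Ccne1 peak and the Ccne2 3′ peak were the 2 highest of the set by read ratio. Ccne1, which encodes cyclin E1 (ENSMUSG00000002068, chromosome 7, 38097984 to 38107490, minus strand), had a single peak of 75 bases at 38097984 to 38098058. It drew 5742 IP reads on 2317 input reads, a ratio of 2.48 (exact 95% interval 2.36 to 2.60). The authors' deposited table gave a log2 enrichment of 3.09. Its interval ended exactly at the 3′ end of the RefSeq span. At 75 bases it had the lowest length in the deposited list, and its input reads stood at the 87.2 percentile of all peaks.

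Ccne2, which encodes cyclin E2 (ENSMUSG00000028212, chromosome 4, 11190433 to 11204779, peaks on the plus strand), had a weak 5′ peak and a strong 3′ peak. The 5′ peak, at 11192843 to 11193988, drew 1551 IP reads on 1861 input reads, a ratio of 0.833 (exact 95% interval 0.779 to 0.892). The 3′ peak, at 11203060 to 11203484, drew 4999 IP reads on 1930 input reads, a ratio of 2.59 (2.46 to 2.73). With nearly equal input reads, the 3′ peak held 3.22 times the IP reads, and its ratio was 3.11 times that of the 5′ peak (exact conditional 95% interval 2.85 to 3.39). The authors' deposited table gave log2 enrichments of 2.60 and 4.33, which differ by 1.72. Over 2603 protein-coding genes with 2 peaks the median difference without regard to sign was 0.82, and 82.4% of them differed by less than Ccne2.

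The 3′ peak of Ccne2 was the only one of the 8 that also overlapped another RefSeq gene, Ints8, which contained it in full. Of all peaks, 80.8% overlapped a single RefSeq gene. The labels do not state that the libraries kept strand, and without strand the reads of both genes cannot be told apart. No deposited peak on the minus strand overlapped the Ccne2 span. Limited to peaks over a single gene, Ccne2 kept its 5′ peak alone and stood at 2.60 by the authors' deposited table.

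**Figure D2:**
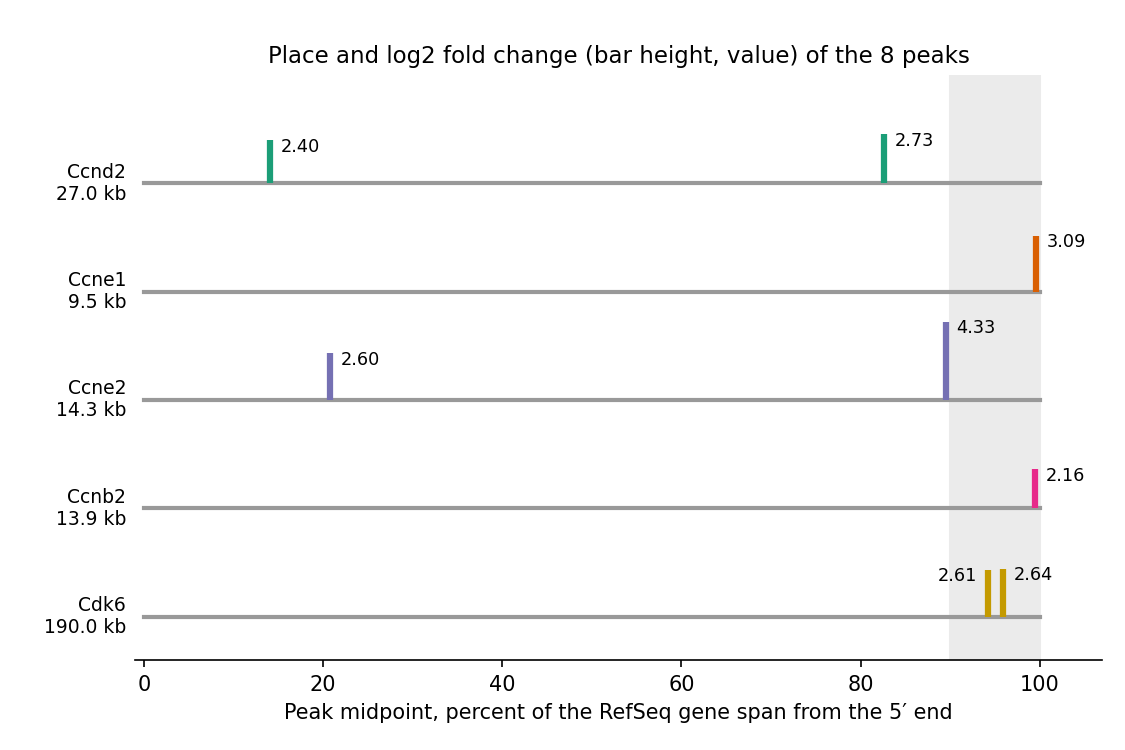
Midpoint of each of the 8 peaks along its RefSeq gene span, from the 5′ end (0%) to the 3′ end (100%), with 1 line per gene scaled to the same width and the last 10% shaded. Bar height and number give the log2 enrichment from the authors' deposited table; the Ccne1, Ccnb2 and Cdk6 peaks lie in the shaded part, and the highest bar is the Ccne2 3′ peak at 4.33.

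Of the later cyclins only Ccnb2, which encodes cyclin B2, held a peak (ENSMUSG00000032218, chromosome 9, 70407689 to 70421554, minus strand). At 70407692 to 70407841 it drew 530 IP reads on 727 input reads, a ratio of 0.729 (exact 95% interval 0.651 to 0.817). Its log2 enrichment (2.16, authors' deposited table) stood at the 17.6 percentile of all peaks, and its read ratio at the 2.43 percentile. Ccnb1, which encodes the major mitotic cyclin B1 (chromosome 13, 100778739 to 100786486), overlapped no peak, and the nearest lay 2924 bases away within Cenph. Ccna2, which encodes cyclin A2 (chromosome 3, 36564865 to 36573038), overlapped none within its 8.17 kb, and the nearest lay 44502 bases away within Smim43.

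Cdk6 and Cdk4 encode the catalytic partners of the D-type cyclins, and only Cdk6 held peaks (ENSMUSG00000040274, chromosome 5, 3341004 to 3531008, plus strand). The 5′ peak, at 3519370 to 3520769, drew 577 IP reads on 370 input reads, a ratio of 1.56 (exact 95% interval 1.37 to 1.78). The 3′ peak, at 3522945 to 3523294, drew 304 IP reads on 321 input reads, a ratio of 0.947 (0.807 to 1.11). Only 2175 bases separated them, in a gene of 190.0 kb. By reads the 5′ peak was the higher, with 1.65 times the ratio of the 3′ peak (exact conditional 95% interval 1.34 to 2.03). The authors' deposited table ordered them the other way, with log2 enrichments of 2.61 and 2.64, which differ by 0.03. Of genes with 2 peaks, 13% were ordered oppositely by both measures.

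Cdk4 (chromosome 10, 127063535 to 127067288, plus strand) had no peak by the rule and the only near miss of the 10 genes. All 8 assigned peaks lay wholly inside their gene, whereas a minus-strand peak at 127067280 to 127067679 overlapped Cdk4 by 9 bases, 2.25% of its length. The rest of it lay in the neighbouring gene Tspan31, which runs on the minus strand, end to end with Cdk4. It drew 4752 IP reads on 3327 input reads, and the authors' deposited table gave a log2 enrichment of 2.31. A plus-strand peak at 127067322 to 127067646 began 34 bases beyond the RefSeq end of Cdk4 and shared all of its 325 bases with the minus-strand peak. It drew 5185 IP reads on 4541 input reads, and the authors' deposited table gave a log2 enrichment of 2.05. Which of the neighbours gave these reads was not tested.

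Between genes the order of enrichment was only partly resolved. By read ratio the Ccne2 3′ peak (2.59) and the Ccne1 peak (2.48) led, with overlapping 95% intervals. The Ccnd2 3′ peak (1.81), the Cdk6 5′ peak (1.56) and the Ccnd2 5′ peak (1.41) followed, and each interval overlapped the next. The Cdk6 3′ peak (0.947), the Ccne2 5′ peak (0.833) and the Ccnb2 peak (0.729) were lowest, and the interval of the Cdk6 3′ peak overlapped those of both others. These last 3 of 8 peaks held fewer IP than input reads, as did 11.3% of all peaks. No ratio here is adjusted for library depth, and a value under 1 is no sign of depletion. Relative to the median ratio of all peaks, 2.35, the strongest peaks of Ccne2, Ccne1, Ccnd2, Cdk6 and Ccnb2 (picked by log2 enrichment) stood at 1.10, 1.05, 0.768, 0.403 and 0.310 times. For Cdk6 this is the 3′ peak, and its 5′ peak stood at 0.663 times. Relative to the ratio of total IP to total input reads over all peaks, Ccne2 and Ccne1 fell on the other side of 1, at 0.954 and 0.913 times.

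The deposited fold change was not a fixed multiple of the read ratio. For 4 of the 8 peaks the gap exceeded the median of all peaks by more than the SD over peaks. Over all peaks the log2 enrichment of the authors' deposited table exceeded the log2 read ratio (pseudocount 0.5 reads) by a median of 1.88, with 0.97 and 2.80 as the 5 and 95 percentiles. For both Ccnd2 peaks, the Ccne1 peak and the Cdk6 5′ peak the excess was 1.90, 1.88, 1.78 and 1.97, all within 0.53 (the SD over peaks) of that median. For the Ccne2 5′ and 3′ peaks, the Ccnb2 peak and the Cdk6 3′ peak the excess was 2.87, 2.95, 2.61 and 2.72. These stood at the 97.0, 99.4, 89.6 and 92.9 percentiles of all peaks, so only the Ccne2 peaks lay beyond the 95 percentile. Both Ccne2 peaks had a high excess and differed by 0.09, while the Cdk6 peaks differed by 0.75. The median difference in genes with 2 peaks was 0.27 without regard to sign. How the authors derived their fold change is not stated in the labels or headers. Taking the strongest peak of each gene, Ccne2 came first by both measures, and its lead over Ccne1 was 1.23 in the log2 enrichment of the authors' deposited table and 0.06 in the log2 read ratio, where their intervals overlapped. Ccne2 lost first place to Ccne1 when only peaks over a single RefSeq gene were used (2.60 against 3.09 by the authors' deposited table). It also did so with reads summed over the peaks of a gene, at 0.735 against 1.05 times the median ratio.

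**Figure D3:**
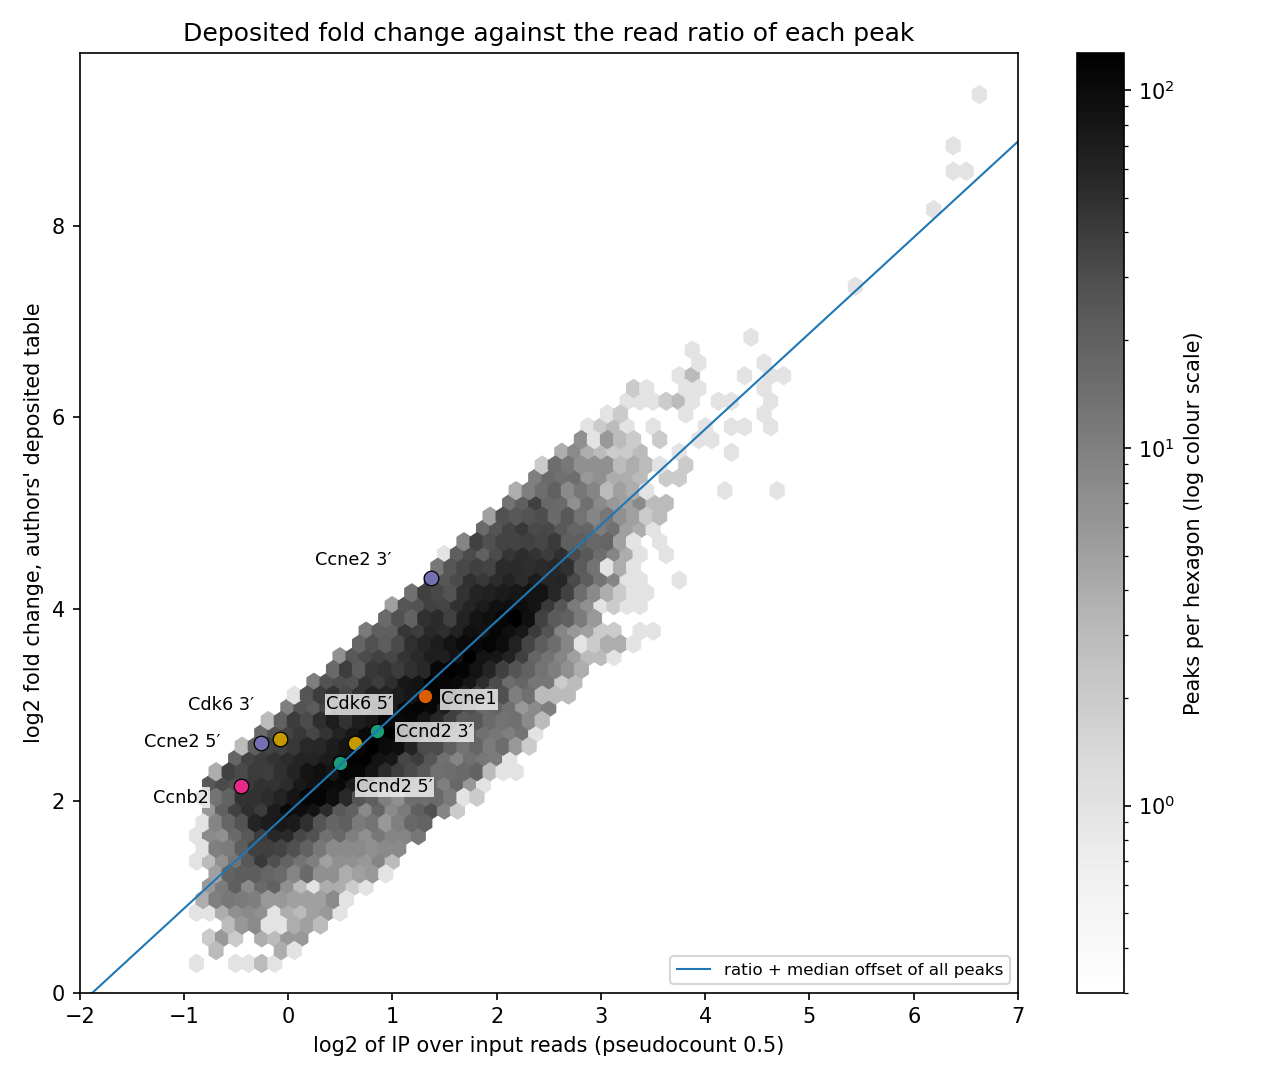
Log2 enrichment in the authors' deposited table (y axis) against the log2 ratio of IP to input reads with a pseudocount of 0.5 (x axis) for the 8 peaks (coloured points) over a density of all 21195 peaks. The blue line adds the median excess of 1.88 to the ratio; the Ccne2, Ccnb2 and Cdk6 3′ points lie above the line by more than the others, which lie near it.

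The 8 peaks were placed along the RefSeq span of their gene by midpoint. The midpoints of 4 of the 8 peaks, those of Ccne1, Ccnb2 and Cdk6, fell in the last 10% of the span (50%, exact 95% interval 15.7% to 84.3%). Of 18230 peaks inside a protein-coding gene, 36.4% did, a share within that interval. The interval takes the 8 peaks as independent, but peaks of a gene share its RNA, and both Cdk6 peaks are among the 4. It covers counting error only, and a difference from the background was not tested. The Ccne2 3′ peak fell just short, at 89.5% of the span and 1295 bases from the RefSeq end, and the Ccnd2 3′ peak lay at 82.6%. The 5′ peaks of Ccnd2 and Ccne2 lay at 14.1% and 20.8%, 3630 and 2410 bases from the start. The peaks of Ccne1 and Ccnb2 ended 0 and 3 bases from the RefSeq 3′ end, which 7.64% of peaks inside a gene approached to within 10 bases. The Cdk6 peaks lay 10239 and 7714 bases from the end. The table of genes used here gives spans without exons, so coding sequence, untranslated regions and introns were not assigned.

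The regulators around these genes are given beside the same background of 44.2% of protein-coding genes with a peak. All 7 CDK inhibitor genes held one, 11 of 13 genes of the Rb and E2F list, and 17 of 20 genes of the ubiquitin ligases and adaptors that mark cyclins and other cell-cycle proteins for destruction. Of kinases, phosphatases and other genes (Ccnh and Mnat1) that set CDK phosphorylation, 6 of 11 did, and of other cyclins 15 of 19. Ccnh stands on both of these lists and held no peak. Of other cyclin-dependent kinases, 11 of 22 did, and Cdk1 and Cdk2, the partners of cyclins B, A and E, were not among them. The medians of the strongest peak per gene in the authors' deposited table were 2.53 for CDK inhibitors, 2.84 for other cyclins, 3.14 for cyclin destruction, 3.20 for CDK phosphorylation, 3.21 for Rb and E2F and 3.92 for other kinases. Of these, 2.53, 3.21 and 3.14 are the values of Cdkn1a, Rbl2 and Fbxw7, whose strongest peaks lay opposite to the RefSeq strand. The only Fbxw7 peak ran from 84534620 to 85801085 on chromosome 3, far longer than the 164209 bases of the gene. It also overlapped many other RefSeq genes, among them Gatb and Fam160a1, so its reads cannot be given to Fbxw7. The counts were not tested, and genes of a list differ in length and level. Nor were they limited to peaks over a single RefSeq gene. The only peaks of Cdk5, Cdkn2b and Rb1, among others, lay wholly within another RefSeq gene as well.

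Other cyclins were led, by the authors' deposited table, by 4.79 for Ccng1, a p53 target, 4.35 for Ccnl1, which acts in splicing, and 4.26 for Ccnj. The Ccng1 peak drew 1428 IP reads on 401 input reads, a ratio of 3.56 (exact 95% interval 3.19 to 3.99). For other kinases the authors' deposited table gave 5.32 for Cdk13 and 4.92 for Cdk12, which phosphorylate RNA polymerase II, and 4.50 for Cdk7, the CDK-activating kinase, which also stands on the CDK phosphorylation list. Apart from Ccnj, each of these 6 values exceeded the 4.33 of Ccne2. The Cdk7 peak drew 7586 IP reads on 1497 input reads, a ratio of 5.07 (4.79 to 5.36), above that of any of the 8 peaks. The inhibitors were led in the authors' deposited table by Cdkn2b at 3.73 and Cdkn2c at 2.70, which bind Cdk4 and Cdk6, with Cdkn1b between them at 3.19. The Cdkn2b peak also lay wholly within another RefSeq gene, Gm12610, which runs on the opposite strand. Wee1, which inhibits Cdk1, and Cdc25a, which activates CDKs, stood at 3.58 and 3.29 by the authors' deposited table.

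The Rb and E2F list was led by Rb1, E2f3 and E2f6, with log2 enrichments of 4.87, 4.60 and 4.26 by the authors' deposited table. The E2f6 peak rested on only 11 input and 63 IP reads, and the E2f3 peak on 99 and 577. The Rb1 peak lay wholly within Lpar6, a gene inside the Rb1 span that runs on the strand of the peak. Skp2, Anapc1 and Cul3 led the destruction list with 4.38, 4.27 and 4.09 by the authors' deposited table. For Cdkn1a, Rbl2 and Fbxw7 the strand with more IP reads was opposite to the strand RefSeq gives. Among protein-coding genes with a peak and a RefSeq strand here, 5.87% had this mismatch. None of the 5 cyclin and kinase genes with a peak did, as far as the table gives a strand (Ccne1, Ccnb2 and Cdk6).

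**Figure D4:**
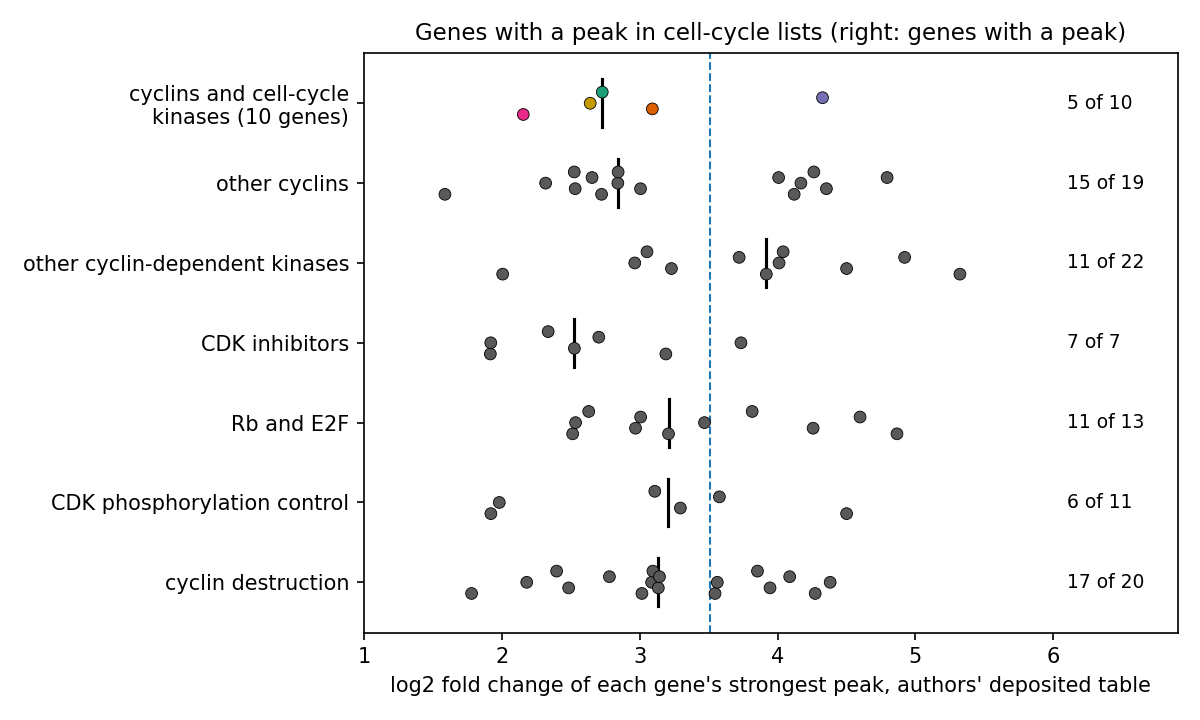
Log2 enrichment (authors' deposited table) of the strongest peak of each gene with a peak, shown as points, for the 10 cyclin and kinase genes (coloured) and 6 lists of related cell-cycle genes, with the number of genes with a peak at the right. Black bars mark each list's median and the dashed line the median of all protein-coding genes with a peak, 3.51; of the 5 coloured genes only Ccne2 lies to its right.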

How the data were processed

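m6A IP and input libraries of mouse hypothalamic neural progenitor cells were measured. STAR 2.5.2a, Trimmomatic 0.32 and bcl2fastq 2.17.1.14, with the builds GRCm38.p6 and GRCh38.p13, are listed in the submitters' processing notes. The aligner settings, peak caller and counter are not stated in the labels or headers. The deposited read counts per peak are whole numbers in 1 input and 1 IP column, per the file headers. Being pooled over unnamed libraries, they were given no count model. The authors' log2 fold change, p-values, adjusted p-values and a score (not used here) were taken as deposited and compare IP with input.

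Gene spans came from RefSeq for GRCm38.p6. Overlaps, ratios of IP to input reads and exact Clopper-Pearson 95% intervals were computed with Python 3.11.15, pandas 2.3.3 and scipy 1.17.1. Log2 ratios used a pseudocount of 0.5. Since reads made by PCR carry no molecular identifiers and are not independent, intervals cover counting error only. The overlap rule was tested on simulated data. Pathway genes were named as the up to 3 per list with the highest log2 fold change on at least 10 input reads, and 1 listed symbol (Skp1a) had no match. The members and lists were chosen with earlier results of these data known. Knockout and control were not compared, because no column names a genotype. No genome sequence was used here.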

Additional observations from a re-analysis of the deposited data

How the results depend on the processing

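Across the 10 genes, the number with a peak stayed within 1.5 times of 5 and the number of peaks within 1.5 times of 8 under each overlap, strand, fold and read-count alternative run. Each list's count did so with any overlap, with both strands or the RefSeq strand, and with at least 10 input reads. No fold minimum and no limit to peaks over a single RefSeq gene was run on the lists. The strongest-peak log2 fold change in the authors' deposited table became 2.56 for Ccnd2 and 3.46 for Ccne2 as a mean over peaks, and 2.60 for Ccne2 with peaks over a single RefSeq gene, an alternative chosen after seeing the data. Scaled by total reads, the ratio relative to all peaks changed from 0.768 to 0.665 for Ccnd2 and from 0.310 to 0.269 for Ccnb2, and crossed 1 for Ccne1 (0.913) and Ccne2 (0.954). With reads summed over the peaks of a gene it was 0.675 for Ccnd2, 0.542 for Cdk6 and, crossing 1, 0.735 for Ccne2. The construction of these alternatives, other reads or another divisor, gives the change. The other 79 values stayed within the counting interval or within 1.5 times. No paired analysis was possible because the columns carry no replicate number, and no library could be left out. The 8 peaks rest on 321 to 2317 input reads, and counting leaves the order open between peaks whose intervals overlap.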

Other observations

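Several regulators of cyclins and their kinases held more peaks than any of the 10 genes, whose maximum was 2. Wee1 held 6 peaks, Cdk12 held 5, and Cdc25a and Ambra1, the latter an adaptor for the destruction of D-type cyclins, held 4 each. Rbl2, E2f3, E2f7 and Tfdp2 held 3 each. These are the highest of the 90 genes of the lists. The Rbl2 peaks lay opposite to the RefSeq strand of Rbl2. The strongest of them lay wholly within Aktip, which runs on the strand of the peak. Among all protein-coding genes with a peak the median was 2. Of 21900 protein-coding genes, 4895 held 2 or more peaks and 2603 held exactly 2. Counts above 2 were thus not particular to these regulators. The lists also hold 90 genes against 10, and the difference in peak number was not tested. Wee1, Cdk12, Cdc25a and Ambra1 span 21241, 78669, 18378 and 188712 bases, and longer genes more often held a peak. The strongest Ambra1 peak drew 3570 IP reads on 1327 input reads, a ratio of 2.69 (exact 95% interval 2.53 to 2.87). The authors' deposited table gave this peak a log2 enrichment of 3.85. Ambra1 was chosen after its values were seen.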
